A study of Mus musculus with 1627 samples.

Results

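The 9 genes Lmna, Lmnb1, Lmnb2, Lbr, Emd, Sun2, Syne1, Syne2 and Vim encode proteins of the nuclear lamina, the inner and outer nuclear membranes and the vimentin filament. They are 9 of the 23725 genes in a table of single regulatory T cells (Tregs), the Foxp3-expressing CD4 T cells that restrain immune responses. The members were picked by name with the muscle and spleen levels of Lmna and Vim already known, and the relation of Lmna to Fos and Jun was set as a question with results in view. Their muscle over spleen values are therefore given as a description. Tregs of B6 Foxp3-Ires-Gfp males aged 8 months were sorted from spleen and from skeletal muscle 4 days after cardiotoxin, a venom toxin that kills muscle fibres. All 3 libraries, the spleen library included, come from mice with this reporter and this injury, so an uninjured group is not part of the comparison. Sorted cells were DAPI-negative and positive for TCRb, CD4 and the green reporter. Spleens were broken up mechanically and muscles were digested with collagenase and dispase, so tissue and preparation cannot be told apart. The counts cover 1627 cells, of which 1 spleen library gave 15.9%, muscle library 1 41.4% and muscle library 2 42.7%. Labels name no animal for any cell, so tissues are compared without a test.

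Lamins are intermediate filament proteins that line the inner side of the nuclear envelope. Lmna encodes lamins A and C, which stiffen the nucleus, while Lmnb1 and Lmnb2 encode the B-type lamins, which stay attached to the membrane. Lbr (lamin B receptor) and Emd (emerin) are proteins of the inner nuclear membrane that hold chromatin and lamins there. Sun2 crosses the inner membrane and binds nesprins of the outer membrane, encoded by Syne1 and Syne2, and together they form the bridge that links lamina and cytoskeleton. Vim encodes vimentin, the cytoplasmic intermediate filament protein of leukocytes and mesenchymal cells, which is known to be more abundant in activated lymphocytes.

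Spleen cells were sequenced more deeply than muscle cells. Libraries held 982570, 1533277 and 1916496 UMIs (unique molecular identifiers, 1 for each captured mRNA), with medians of 3541 UMIs per cell in spleen against 1976 and 2487.5 in muscle. Barcodes shared between libraries numbered 1 for spleen and muscle library 1, 0 for spleen and muscle library 2, and 11 for the muscle libraries. All 8 listed Treg and T cell genes were seen in each library, led by Ctla4 and Ikzf2, with Foxp3 1.5-fold above spleen in both muscle libraries. Levels are given as CPM, a gene's UMIs per 1000000 UMIs of its library. Folds carry exact conditional binomial (Clopper-Pearson) 95% intervals, which cover counting error only. UMIs clustered in cells: genes seen in 5% to 10% of cells had a median of 2.06 UMIs per positive cell in spleen and of 1.42 and 1.67 in the muscle libraries. Independent counts would give 1.07, 1.05 and 1.06, so intervals on UMIs are too narrow and shares of cells are given beside them.

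Among the 7 members with at least 50 UMIs, Lmna and Vim were higher in muscle, Sun2 was lower, and Lmnb1, Lbr, Emd and Syne1 met neither rule. A gene counted as higher where each muscle library had 2 or more times the spleen level, and as lower where spleen had 2 or more times the level of each muscle library. This is a rule of size. Over all 7617 genes with that many UMIs it took 7.47% as higher and 3.45% as lower. The members were selected on this contrast, so nothing is read from their counts of 2 higher and 1 lower. Their median log2 fold, averaged over both muscle libraries, was 0.32, against 0.05 over all such genes. By the smaller of its 2 muscle folds, Lmna stood at rank 6 of 7617 from the highest and Vim at rank 91. Members just inside and just outside the rule were Sun2, whose weaker fold was 0.480, and Lmnb1, whose weaker fold was 1.93. Lmnb2, with 45 UMIs in all, and Syne2, with 27, had too few for the rule.

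**Figure D1:**
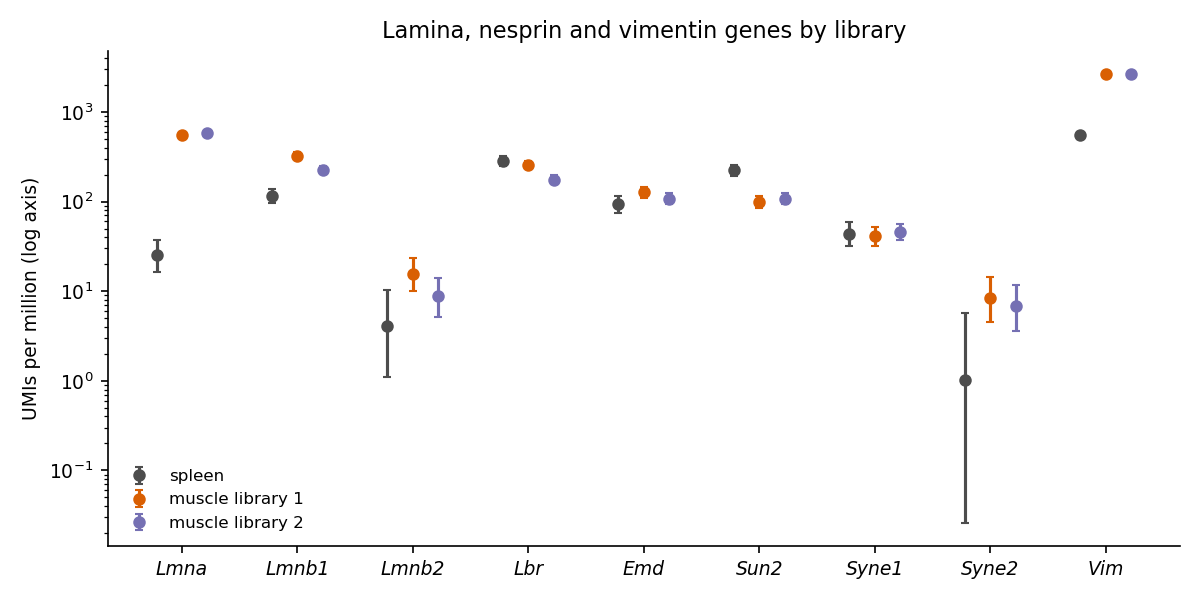
UMIs per 1000000 UMIs of the library on a log axis for the 9 genes in spleen, muscle library 1 and muscle library 2, where bars are exact Poisson 95% intervals for counting error. Both muscle libraries sit far above spleen for Lmna (560.2 and 582.8 against 25.4) and Vim (2622 and 2630 against 547.5), and below it for Sun2 (99.8 and 107.5 against 223.9).

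The A-type lamin gene showed the widest gap of the members. Lmna stood at 25.4 CPM (exact Poisson 95% interval 16.5 to 37.6, from 25 UMIs) in the spleen library, and at 560.2 (523.4 to 598.99) and 582.8 (549.2 to 618.04) in the muscle libraries. These are 22.02-fold (14.8 to 34.2) and 22.9-fold (15.4 to 35.6) over spleen. Muscle library 2 stood at 1.04-fold of muscle library 1 (0.951 to 1.14), so the muscle libraries lay close together and neither came near the spleen level. The spleen UMIs came from 10 cells, 3.86% of that library (exact binomial 95% interval 1.87 to 6.99%). In muscle, 41.8% (38.1 to 45.7%) and 42.5% (38.8 to 46.3%) of cells held at least 1. Since spleen cells were deeper, each cell was also thinned at random to 1000 UMIs, which kept 1594 cells and left out 0 spleen cells and 26 and 7 muscle cells with fewer. Thinning left 4 spleen cells with Lmna, or 1.54%, against 29.2% and 29.8% of muscle cells. The share ratio over spleen was then 18.9 and 19.3, which rests on those 4 spleen cells and on 1 random draw. At levels this low the share of cells with a UMI depends in part on the mean level. These ratios therefore cannot separate more cells with Lmna from more Lmna per cell. The sort held 1 cell type, so no cells that should lack Lmna were at hand as a background.

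Lmna lies on the minus strand of chromosome 3 from 88480147 to 88509956 (GRCm38, GENCODE M21) and overlaps no other annotated gene. Vim lies on the plus strand of chromosome 2 from 13573927 to 13582826, also without an overlapping gene. The 250 bases before a RefSeq start of each gene (build GRCm38.p6) are shown because these are the 2 members higher in muscle and because Lmna is set below against Fos and Jun, which bind AP-1 letters as a pair. Capitals mark GC box letters (GGGCGG or CCGCCC) in Lmna and TATA box letters (TATAAA or TTTATA) in Vim. The Lmna stretch is chr3:88503353-88503602, minus strand, and the Vim stretch is chr2:13574061-13574310, plus strand, each written 5′ to 3′.
Lmna: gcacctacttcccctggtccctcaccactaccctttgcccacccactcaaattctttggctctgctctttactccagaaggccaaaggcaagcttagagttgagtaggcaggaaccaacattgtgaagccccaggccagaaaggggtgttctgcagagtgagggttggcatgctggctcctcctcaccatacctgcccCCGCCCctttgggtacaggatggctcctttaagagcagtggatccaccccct
Vim: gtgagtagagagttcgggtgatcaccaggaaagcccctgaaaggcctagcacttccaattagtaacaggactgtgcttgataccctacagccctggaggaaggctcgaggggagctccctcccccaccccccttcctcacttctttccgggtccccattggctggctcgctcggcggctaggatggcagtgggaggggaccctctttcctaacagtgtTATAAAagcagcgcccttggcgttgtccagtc
The GC box letters of Lmna begin 52 bases before the start, and the TATA letters of Vim begin 32 bases before it. AP-1 letters (TGAGTCA or TGACTCA, each the reverse of the other on the opposite strand) are in neither stretch. A match, TGACTCA, begins at base 40 after that Lmna start. RefSeq windows of 300 bases, 250 before and 50 after a start, were matched for 8 of 9 members, with 12 windows in all, and this was the only AP-1 match among them. Over all 32851 mouse windows of that length, 5.20% held AP-1 letters and 35.7% held GC box letters, against 7 of the 12 member windows with a GC box. CRE letters (TGACGTCA) and the CArG box were in 0 of the 12 windows, and in 1.79% and 1.63% of all windows. TATA letters stood in 2 of the 12 windows, those of Vim and of 1 Syne1 start, and in 13.6% of all windows. These are matches of letters and say nothing of binding.

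Vim was seen in many spleen cells already, and its level was higher in muscle. Vim stood at 547.5 CPM (502.2 to 595.8) in spleen and at 2622 (2542 to 2705) and 2630 (2558 to 2704) in muscle, or 4.79-fold (4.38 to 5.25) and 4.80-fold (4.39 to 5.26) over spleen. The muscle libraries did not differ beyond counting error, at a ratio of 1.003 (0.962 to 1.05). After thinning, a Vim UMI was seen in 25.5% of spleen cells, 72.8% of cells in muscle library 1 and 74.5% in muscle library 2, a share ratio of 2.86 and 2.92. Cells with 3 or more Vim UMIs per 1000 made up 3.86% of spleen cells against 36.9% and 40.2% of muscle cells. Vim thus differed both in the share of cells that showed it and in the share with 3 or more UMIs. Both shares rise with the mean level, so they do not separate more cells with Vim from more Vim per cell.

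**Figure D2:**
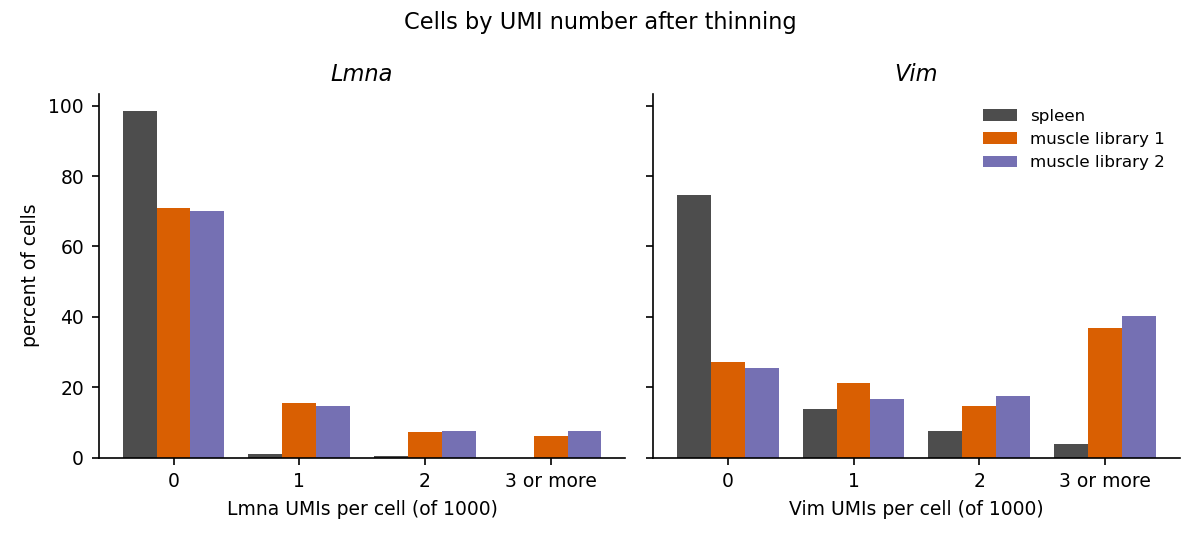
Percent of cells by number of Lmna UMIs (left) and Vim UMIs (right) after thinning each cell to 1000 UMIs, in spleen, muscle library 1 and muscle library 2 (1594 cells in all). For Lmna, 98.5% of spleen cells and 70.8% and 70.2% of muscle cells hold 0, while for Vim the cells with 0 make up 74.5% in spleen and 27.2% and 25.5% in muscle.

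Within muscle, Lmna was spread unevenly over cells. The 10% of cells with the most Lmna UMIs held 57.2% of all Lmna UMIs in muscle library 1 and 53.7% in muscle library 2. For Vim the like 10% of cells held 39.97% and 34.7%, for Lmnb1 53.3% and 59.1%, and for the sparser Sun2 82.4% and 82.04%. This share thus does not set Lmna apart among the members. In thinned cells the variance of Lmna was 2.85 and 2.99 times its mean, where independent counts at one level would give a ratio of 1. Vim had like ratios, 3.12 and 2.73. Since UMIs of genes in general clustered in cells of these libraries, a ratio above 1 does not by itself set Lmna apart. The cause of this clustering was not tested. Cells with 3 or more Lmna UMIs per 1000 were 6.17% and 7.71% of muscle cells, and 0 spleen cells had as many.

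B-type lamins moved less than Lmna. Lmnb1 stood at 116.02 CPM (95.7 to 139.4) in spleen and at 324.1 (296.3 to 353.9) and 224.4 (203.7 to 246.6) in muscle. Muscle library 1 was 2.79-fold over spleen (2.27 to 3.46) and muscle library 2 1.93-fold (1.57 to 2.40), just under the 2-fold rule. The muscle libraries also differed from each other, at 0.692-fold for the second over the first (0.607 to 0.789), which was not so for Lmna or Vim. With equal weight for each cell the Lmnb1 folds were 3.16 and 2.14, and both passed. Lmnb2 had 4, 24 and 17 UMIs, so its folds of 3.84 (1.32 to 15.2) and 2.18 (0.711 to 8.90) were not distinguishable from each other or, for muscle library 2, from spleen at this depth.

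Lmnb1 is known to be more abundant in proliferating than in senescent cells, and it was higher in muscle cells with transcripts of the cycling list (15 genes, among them Mki67, Top2a and Pcna). Muscle cells with 3 or more cycling UMIs per 1000 had 2.24-fold (1.52 to 3.28) and 1.76-fold (1.10 to 2.74) the Lmnb1 level of cells with 0. Lmna stood at 1.12-fold (0.811 to 1.52) and 1.44-fold (1.09 to 1.88) in the same split, and Vim at 0.969-fold and 1.01-fold. A Lmnb1 UMI was seen in 34.9% (24.9 to 45.9%) of the 86 cells with 3 or more in muscle library 1 against 18.3% (14.1 to 23.2%) of those with 0, but in 20.7% (12.9 to 30.4%) of 92 cells against 16.4% (12.5 to 20.9%) in muscle library 2. In cells with 0 cycling UMIs, Lmnb1 was 3.91-fold (1.88 to 9.39) and 3.07-fold (1.47 to 7.43) over the like spleen cells. The cycling list as a whole had 0 of 12 genes higher and 0 lower in muscle, beside 7.47% and 3.45% of all genes. Its genes with the most UMIs, Tubb5, a tubulin, and Hmgb2, a chromatin protein, stood at 1.17-fold and 0.885-fold of spleen in muscle library 1.

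Of the membrane proteins and bridge genes, Sun2 was lower in muscle, and the others stayed within 2-fold of spleen or were too sparse. Sun2 stood at 223.9 CPM (195.3 to 255.5) in spleen and at 99.8 (84.6 to 116.9) and 107.5 (93.3 to 123.2) in muscle, and so was 2.24-fold (1.82 to 2.78) and 2.08-fold (1.71 to 2.53) lower in muscle. Its share of thinned cells was 13.5% (9.60 to 18.3%) in spleen against 7.72% and 8.15% in muscle. The muscle libraries did not differ in Sun2 beyond counting error, at 1.08-fold (0.870 to 1.34). When each cell had equal weight, the Sun2 folds were 0.486 and 0.507, and the second no longer met the rule. Sun2 lies on the minus strand of chromosome 15 from 79724070 to 79742536 (GRCm38), with the antisense gene Gm16575 over part of it. Dnah14 likewise overlaps Lbr (chromosome 1, 181815335 to 181843046) on the other strand. Whether counting used strand is not given in the sources used here, so reads of such pairs cannot be told apart.

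Lbr stood at 283.9, 258.9 and 176.4 CPM in spleen and muscle libraries 1 and 2, or 0.912-fold (0.780 to 1.07) and 0.621-fold (0.528 to 0.730) of spleen. As for Lmnb1, muscle library 2 lay below muscle library 1, at 0.681-fold (0.587 to 0.789). Emd stood at 93.6, 126.5 and 107.5 CPM, or 1.35-fold (1.05 to 1.75) and 1.15-fold (0.894 to 1.48). Thinned cells gave Emd 2.58-fold and 2.20-fold over spleen, whereas equal weight for each cell gave 1.54-fold and 1.19-fold, so thinned cells put Emd past the 2-fold rule and the other weighting did not. Thinning left 11 spleen cells with Emd. The nesprin gene Syne1 had 43, 63 and 88 UMIs and stood at 0.939-fold (0.627 to 1.42) and 1.05-fold (0.721 to 1.55), with spleen inside both intervals. Syne2 had 1, 13 and 13 UMIs, with counting intervals of 1.25 to 354.04 and 1.001 to 283.2 around its ratios of 8.33 and 6.66. It was too sparse to place. Since 3′ counting sees transcripts near their poly(A) tails, nesprin forms with other 3′ ends would be counted apart or missed, which was not tested.

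**Figure D3:**
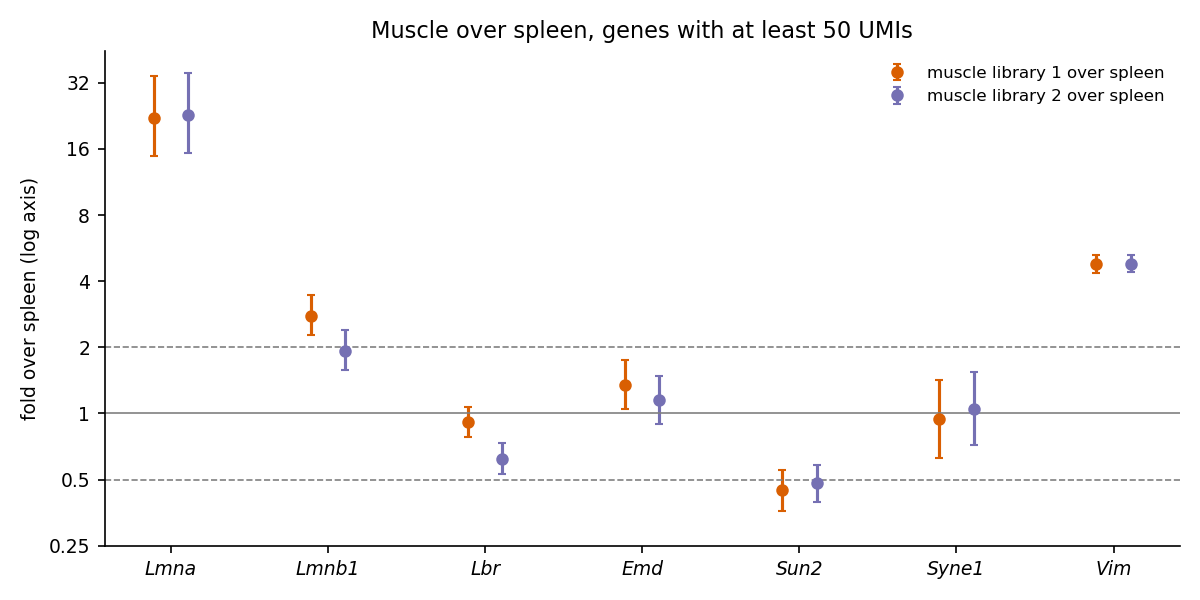
Fold of muscle library 1 and muscle library 2 over spleen on a log axis for the 7 genes with at least 50 UMIs, where bars are exact conditional binomial 95% intervals, the solid line is equality and dashed lines are 2-fold higher and lower. Lmna (22.02 and 22.9) and Vim (4.79 and 4.80) lie above the upper dashed line in both libraries, Lmnb1 straddles it, and Sun2 (0.446 and 0.480) lies below the lower one.

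Other genes of the same structures were read next. Of 14 nuclear envelope genes with at least 50 UMIs, 0 met the rule in either direction, and their median log2 fold was -0.05. Tmpo, which encodes lamina-associated LAP2, stood at 0.960-fold (0.802 to 1.15) of spleen in muscle library 1 and 0.750-fold (0.627 to 0.900) in muscle library 2. Banf1, a chromatin bridge that binds LEM-domain proteins such as emerin, stood at 1.29-fold and 1.13-fold. Among 23 nuclear pore genes 0 were called either way. Tpr of the pore basket stood at 1.01-fold (0.846 to 1.20) and 0.795-fold (0.666 to 0.949), and Nup153 of the same structure at 1.08-fold (0.875 to 1.35) and 0.793-fold (0.638 to 0.989). For Tmpo, Tpr and Nup153 the muscle library 2 interval thus lay below 1 and that of muscle library 1 held 1. Over all genes 7.47% were called higher and 3.45% lower, and lists this short are too small to set 0 calls apart from those shares.

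Of 4 measured enzymes that mature prelamin A, 1 was called higher, beside 7.47% of all genes, and with so few genes nothing is read from that share. This gene, Rce1, the protease that trims farnesylated proteins, was higher at 2.16-fold (1.08 to 4.68) and 2.004-fold, on 11, 37 and 43 UMIs. Zmpste24, which makes the last cut in prelamin A, met neither rule, with 36, 69 and 92 UMIs. In the list of other intermediate filaments and plakins 3 of 10 genes could be placed. Plec, the plakin that ties vimentin to actin and to the nuclear surface, was higher, at 2.20-fold (1.72 to 2.85) and 2.73-fold, while the actin and microtubule linker Macf1 stood at 0.525-fold and 0.412-fold. Gfap, Nes, Krt8 and Krt19 had 0 UMIs in all libraries, and the keratin gene Krt18 had 0, 2 and 7. Vim thus stood far above these filament genes. The list also holds the keratin gene Krt10, whose level is not given here. Rara, the retinoic acid receptor whose family is known to act on the Lmna promoter, was the only 1 of 8 retinoid and mechanosensing genes called, 2.25-fold and 2.26-fold over spleen. Over all genes 7.47% were called higher, and with 8 genes nothing is read from that share.

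Lmna was then set against Fos and Jun, whose protein products pair as AP-1 and whose transcripts appear within minutes of stimulation or tissue handling. Fos stood at 228.99, 448.7 and 553.1 CPM in spleen and muscle libraries 1 and 2, 1.96-fold (1.68 to 2.29) and 2.42-fold (2.09 to 2.80) over spleen, and Jun stood at 1.09-fold (0.856 to 1.39) and 1.32-fold (1.06 to 1.67). Cells were classed by Fos plus Jun UMIs after thinning. Those with 0 made up 79.9% of spleen cells and 71.1% and 74.7% of muscle cells. The class with 3 or more held 14 spleen cells and 49 and 64 muscle cells.

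In cells with 0 Fos plus Jun UMIs, the gap between muscle and spleen in Lmna remained. Lmna there was at 19.3 CPM (5.27 to 49.5, from 4 UMIs) in spleen, against 509.8 (446.7 to 579.3) and 565.3 (502.1 to 634.3) in muscle. That is 26.4-fold (10.2 to 97.6) and 29.3-fold (11.3 to 108.1), and the low spleen count sets the wide intervals. With all UMIs of the same cells, where spleen had 22, the folds were 18.3 (11.97 to 29.4) and 18.7 (12.3 to 30.04). Thinning to 1500 UMIs, which kept fewer cells, gave the lowest values, 11.1 (6.06 to 22.5) and 11.8 (6.51 to 23.9), and a second random thinning to 1000 UMIs 16.6 and 17.6. Leaving out cells with a Fosb UMI as well gave 21.2-fold (8.12 to 78.8) and 23.1-fold (8.88 to 85.6) in thinned cells. By cells, 3 spleen cells (1.45%) held Lmna against 28.9% and 29% of muscle cells. A zero here means that no Fos or Jun UMI was among 1000, not that a cell had none. Vim in the same cells was 4.57-fold (3.73 to 5.64) and 5.001-fold (4.09 to 6.17) over spleen, and Sun2 was 0.566-fold and 0.509-fold.

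Across classes within muscle, Lmna UMIs were higher where Fos and Jun were high. Levels went from 509.8 CPM at 0 to 623.2 at 1 to 2 and 1163 at 3 or more in muscle library 1. In muscle library 2 they were 565.3, 618.2 and 1266. Cells with 3 or more thus had 2.28-fold (1.68 to 3.06) and 2.24-fold (1.73 to 2.87) the Lmna of cells with 0. A second random thinning gave 2.12-fold and 1.65-fold, and all UMIs of these cells 2.28-fold and 2.15-fold. With Jun alone the ratio was 2.26 (1.15 to 3.9998) in muscle library 1 and 1.79 (0.852 to 3.33) in muscle library 2, where 1 lay inside the interval, and with Fos alone it was 2.84 (2.08 to 3.83) and 2.25 (1.70 to 2.94). The share of cells with Lmna changed less: 28.9% (24.8 to 33.2%), 26.1% (19 to 34.2%) and 40.8% (27 to 55.8%) in muscle library 1, and 29% (25.1 to 33.2%), 29.1% (20.8 to 38.5%) and 37.5% (25.7 to 50.5%) in muscle library 2. These intervals overlap, so the difference between classes was not distinguishable by cells and was seen in the number of Lmna UMIs.

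Vim was higher in the top class too, and for Lmnb1 both intervals held 1. Vim was 1.51-fold (1.28 to 1.78) and 1.52-fold (1.32 to 1.74) higher at 3 or more than at 0, and Lmnb1 stood at 0.832-fold (0.433 to 1.47) and 0.539-fold (0.227 to 1.10). In spleen the 14 cells with 3 or more held 0 Lmna UMIs, which allows a share of cells of up to 23.2%, so the class could not be read there. As a rank correlation across cells the relation was weak: Spearman's rho of Lmna with Fos plus Jun was 0.04 in muscle library 1 and 0.05 in muscle library 2, over 1335 thinned muscle cells in all. The median over 1177 genes was -0.01 in each, and 85.7% and 88.4% of them had a lower value than Lmna. All points share their library and 1 depth, and a value this near 0 in sparse counts is no finding.

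**Figure D4:**
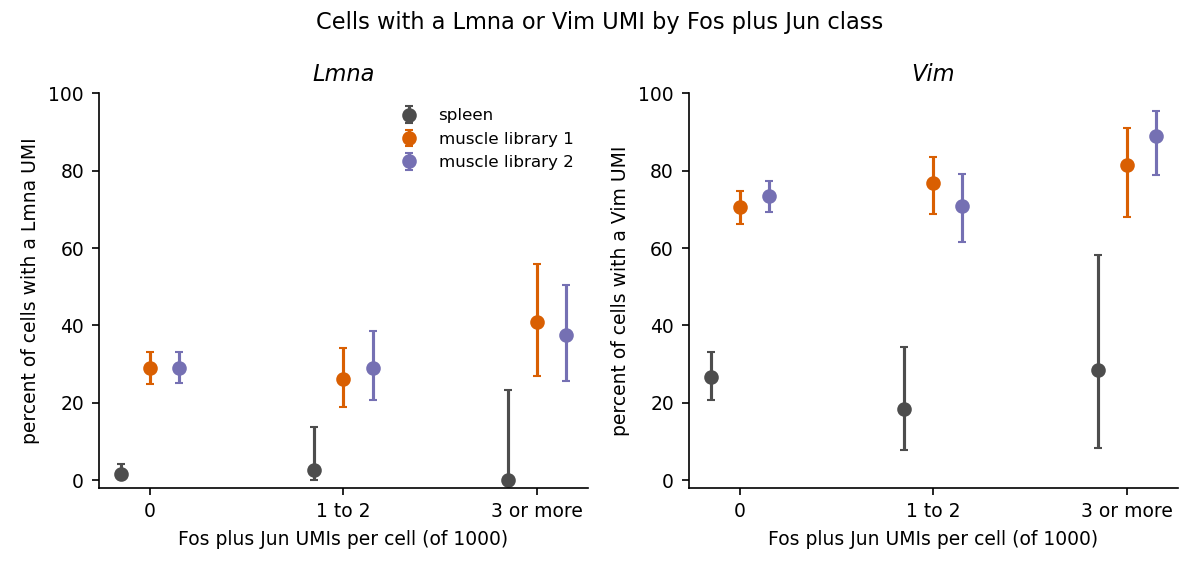
Percent of cells with at least 1 Lmna UMI (left) or Vim UMI (right) in classes of Fos plus Jun UMIs per cell, after thinning to 1000 UMIs, for spleen and both muscle libraries, where bars are exact binomial 95% intervals. For Lmna, muscle cells lie at 28.9% and 29% in the class with 0 while spleen lies at 1.45%, and the muscle intervals of the 3 classes overlap.

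The genes whose UMIs went most with Lmna across muscle cells were then ranked, by the smaller Pearson correlation of log(1 + UMIs) over both muscle libraries among 1177 genes seen in at least 10% of thinned cells of each. Fosb, an AP-1 partner of Jun, came first, with r of 0.23 in muscle library 1 and 0.27 in muscle library 2. Vim was second at 0.19 and 0.21, ahead of Crip1, a LIM-domain protein, at 0.18 and 0.24, and Fam110a at 0.16 and 0.13. Fos followed at rank 5 with 0.13 and 0.12, and then came Klf6, Cd69, Klf2, Cpm and Odc1, each with a smaller r of 0.10 to 0.11. The median over all genes was -0.01 and -0.00. A second random thinning kept 6 of these 10 genes, so the lower ranks rest on the draw. Lmnb1 had r of 0.05 and 0.02 and Lbr stood at rank 1140, and the other envelope members were seen in too few cells to enter. Of these 10 genes, Fosb, Vim, Crip1, Fam110a and Odc1 were themselves higher in muscle.

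A split of muscle cells by Fosb, chosen after its rank was seen, shows the size of this link. Lmna was at 935.3 CPM in cells with Fosb and 458.2 CPM in those without in muscle library 1, and at 1269 and 453.9 CPM in muscle library 2. The folds were 2.04 (1.65 to 2.52) and 2.80 (2.31 to 3.39). Here the share of cells also differed, at 41.2% (33.7 to 48.97%) with Fosb against 24.9% (21.1 to 29.02%) without, and 46.2% (38.2 to 54.3%) against 25.05% (21.4 to 28.96%). Fosb was picked for its correlation with Lmna in these same cells, so these shares and intervals describe the split and test nothing. Fosb itself was seen in 5.02% of thinned spleen cells and in 26.2% and 22.7% of muscle cells, and its library level was 8.05-fold and 7.38-fold over spleen. Muscle cells without any Fos, Jun or Fosb UMI had Lmna at 428.6 and 466.5 CPM against 20.2 in the like spleen cells. Of all thinned cells, 93.7% and 92.3% in muscle and 76.1% in spleen held 3 or more UMIs of the other immediate early genes. The muscle cells without Fos, Jun or Fosb are therefore not free of them. Among the other immediate early genes, 4 of 14 were higher, Fosb, Jund, Zfp36 and Nr4a1, and 1 was lower, Egr2. Over all genes these shares were 7.47% and 3.45%. Only the muscle was digested with enzymes, so that step and the tissue cannot be told apart for Fosb or Lmna.

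Genes most like Vim were ranked in the same way, and that list shares Crip1 with the list for Lmna. Crip1 led with r of 0.32 and 0.26, then S100a6 (0.27 and 0.25), the actin-binding Tmsb4x (0.23 and 0.24), the calcium-binding S100a4 (0.26 and 0.20) and Lmna (0.19 and 0.21). Muscle cells with a Lmna UMI held Vim at 3312 CPM (3058 to 3582) against 2124 (1993 to 2262) without in muscle library 1, and at 3420 (3171 to 3682) against 2307 (2173 to 2447) in muscle library 2. A Vim UMI was seen in 79.4% (72.9 to 84.9%) of cells with Lmna and 70.2% (65.7 to 74.3%) of those without in the first, and in 82.9% (77.1 to 87.8%) and 70.95% (66.7 to 74.97%) in the second. So the 2 members higher in muscle also went together within muscle, in both libraries.

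Spleen Tregs are mostly resting cells that home to lymphoid tissue, so the members were also compared at like content of a resting list (12 genes, among them Ccr7, Tcf7 and Satb1). In that list 6 of 10 measured genes were lower in muscle, including S1pr1, Satb1, Ccr7 and Tcf7, against 3.45% of all genes. This shift in cell state stands beside every member's fold. In cells with 0 resting UMIs per 1000, Lmna was 11.4-fold (3.83 to 55.7) and 10.4-fold (3.52 to 51.1) over spleen, with only 3 spleen UMIs in 52 cells. By cells in this class that was 3.85% in spleen against 33.6% and 29.5% in muscle. The ratios were 49.6 (8.75 to 1972) and 51.8 (9.14 to 2059) at 1 to 2 resting UMIs, and 57.8 (10.05 to 2317) and 94.7 (16.7 to 3773) at 3 or more. Each of these rests on 1 spleen UMI, so the size of the Lmna gap by class could not be placed. Vim was 5.09-fold (3.39 to 8.01) and 5.92-fold (3.95 to 9.29) in cells with 0, and 4.99-fold and 5.98-fold in cells with 3 or more resting UMIs, so its gap was as wide in both classes. Sun2 stayed below spleen in each class, at 0.311-fold to 0.583-fold, and the last, for muscle library 2 at 3 or more, had 1 inside its interval (0.300 to 1.11). Within muscle, Lmna between cells with 3 or more and 0 resting UMIs went in opposite directions, 0.741-fold (0.552 to 0.984) in muscle library 1 and 1.32-fold (1.04 to 1.68) in muscle library 2. The part of cell state in the folds was not tested beyond these classes.

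Splits by single state genes gave small differences for Lmna in muscle, and several did not repeat. Cells with Klrg1, a receptor of effector Tregs, had 1.30-fold (1.04 to 1.61) and 1.32-fold (1.08 to 1.60) the Lmna of cells without. For Il1rl1, the receptor for interleukin 33, the values were 0.776-fold (0.551 to 1.07) and 0.911-fold (0.670 to 1.22), and for Gzmb, a granule protease, 1.29-fold (1.04 to 1.58) and 0.955-fold (0.787 to 1.16). Klrg1 thus repeated in direction, whereas Gzmb did not. Cxcr3, a chemokine receptor, went from 1.48-fold (1.07 to 2.01) in 58 cells of muscle library 1 to 0.512-fold (0.321 to 0.778) in 67 cells of muscle library 2. Itgae, an integrin, gave 0.896-fold and 1.43-fold, and the growth factor gene Areg 1.08-fold and 0.620-fold. Ccr8 and Ccr7 split off only 12 to 21 muscle cells, with intervals that held 1 for Lmna. The interval widths do not allow for UMIs clustered in cells, and the muscle libraries bound how far such splits repeat.

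In spleen the splits by Klrg1 and Gzmb were wider for Vim than in muscle. The 21 spleen cells with Klrg1 had Vim at 1619 CPM against 352.9 in those without (4.59-fold, 2.99 to 6.91), and the 13 with Gzmb at 2231 against 361.8 (6.17-fold, 3.91 to 9.47). Muscle ratios were 1.26 and 1.08 for Klrg1, and 1.33 and 1.14 for Gzmb. Muscle cells with Gzmb held Vim at 2826 and 2834 CPM and those with Klrg1 at 2888 and 2775. With 13 and 21 spleen cells, the order of the Gzmb and Klrg1 groups in spleen was not tested. Of the 10 spleen cells with a Lmna UMI before thinning, 2 held Gzmb and 6 held Vim, against 12 and 94 of the others. These counts are too small to compare. In thinned spleen cells the Lmna ratio was 33.9 (2.83 to 295.6) for Il1rl1, 15.4 (1.76 to 184.3) for Areg and 12.6 (1.05 to 110.1) for Gzmb. For Itgae and Klrg1 it was 12.7 and 7.56, with 1 inside both intervals. Ccr7 gave 0.762, and Cxcr3 and Ccr8 gave 0. Only 4 thinned spleen cells held Lmna, so the size of these ratios could not be placed.

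**Figure D5:**
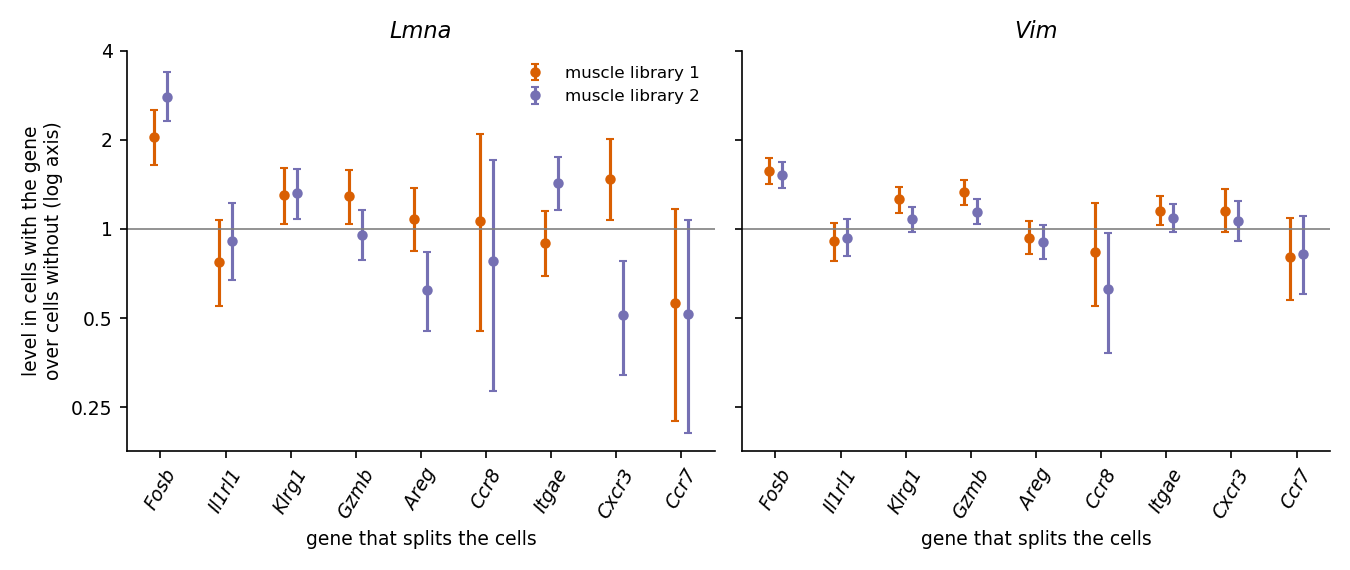
Level of Lmna (left) and Vim (right) in muscle cells with a UMI of the named gene over cells without one, on a log axis, in muscle library 1 and muscle library 2 after thinning to 1000 UMIs, where bars are exact conditional binomial 95% intervals. Fosb, which was picked for its high correlation with Lmna in these same cells, stands at 2.04 and 2.80 for Lmna, and Cxcr3 falls on opposite sides of 1 (1.48 and 0.512).

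Lmna and Vim are also abundant in fibroblasts, endothelium and muscle, so markers of other cells in the sort were read. Of 10 fibroblast markers 3 were at 0 in all libraries, and the list summed to 5.09, 1.96 and 5.22 CPM in spleen and muscle libraries 1 and 2, led by Dcn and Col1a2. Endothelial markers other than Pecam1, which T cells also express, held 1 UMI in all (Egfl7), and 4 of 6 were at 0. Muscle markers summed to 25.4, 26.1 and 42.8 CPM, mostly Acta1 with 25, 37 and 74 UMIs, while 5 of 11 were at 0 and Tnnt3 had 0, 2 and 2 UMIs. Myeloid markers summed to 54.96, 18.3 and 24.5 CPM with 2 of 12 at 0, led by Itgam and C1qa. B cell markers were higher in muscle, at 88.5, 190.4 and 193.1 CPM, with Cd74 and H2-Aa past the 2-fold rule and Ms4a1, 1 of 7 listed genes in the table, at 0 in each library. CD8 and NK markers (Ccl5, Cd8b1) summed to 203.5, 262.8 and 232.7 CPM and red cell and platelet markers (Hba-a2, Hbb-bs) to 16.3, 23.5 and 38.1, and of both lists 0 genes were at 0 in all libraries. The part of these other transcripts in the members' values was not tested.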

How the data were processed

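Per the labels, single sorted Tregs were profiled with inDrops, which primes on poly(A) tails and so counts 3′ ends. The authors deposited raw UMI counts per gene and cell, used here as deposited; all columns were used. The submitters' processing notes name TopHat2, SAMtools and the mm10 build; annotation, strand setting, UMI collapsing and cell filters were not given in the sources used here. Members and gene lists were chosen with earlier results of these data known. Library sums were divided by library totals to give CPM. Where a spleen count was 0, a floor of 3 counts per library or class took its place. Cells with fewer than 1000 UMIs were left out of thinned values (seed 1). Doublets were not called; 12 and 7 muscle cells above 3 times their library's median stayed in. Named are all members, Fos and Jun, the called genes of each list with the most UMIs (at most 4, or 2 where none was called), 2 genes per marker list, the 10 genes most like Lmna and 5 most like Vim, and 8 state genes. A few other genes of a list are named to say what it holds. Each cell stands under its library, so the numbers in cell names pair nothing. Scripts were tested on simulated data. Alternatives covered scaling (edgeR 4.0.16 TMM and DESeq2 1.42.0 size factors, used only for scaling), cell weighting, thinning, thresholds and single libraries. Software was R 4.3.3 and Python 3.11.15 with scipy 1.17.1, pandas 2.3.3, numpy 2.4.6 and matplotlib 3.10.9.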

Additional observations from a re-analysis of the deposited data

How the results depend on the processing

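No paired analysis was possible because the numbers in the labels count cells within a library and pair no samples. Lmna stayed 19.7-fold to 30.2-fold over spleen in muscle library 1 and 20.6-fold to 33.1-fold in muscle library 2 under all 6 scaling, weighting, thinning and cell alternatives, and Vim 4.28-fold to 5.42-fold and 4.31-fold to 5.79-fold. Totals without ribosomal protein genes moved the median log2 fold of all genes by -0.16. The 2 members called higher became 4 with thinned cells, when Lmnb1 and Emd joined, and 4 at a minimum of 10 UMIs, when Lmnb2 and Syne2 joined. The 1 called lower, Sun2, became 0 with equal weight per cell and at 3-fold. The percent of all genes called higher, 7.47%, became 10.4% with thinned cells, 10.3% and 10.9% with each muscle library alone, 9.19% at 10 UMIs, 5.83% at 200 UMIs, 15.9% at 1.5-fold and 2.93% at 3-fold. That of genes called lower, 3.45%, became 5.36% without ribosomal protein genes in the totals, 5.49% with thinned cells, 5.64% at 10 UMIs, 1.82% at 200 UMIs, 10.8% at 1.5-fold, 0.945% at 3-fold, and 6.89% and 6.96% with each muscle library alone. The rank correlation of Lmna with Fos plus Jun in muscle library 1 was 0.15 when thinned to 750 UMIs, and with the other immediate early genes added it was 0.18 in both muscle libraries. With Jun alone it was 0.03 and -0.00, and the Lmna fold between classes in muscle library 2, 1.79 (0.852 to 3.33), had 1 inside its interval. The Lmna fold between classes in muscle library 2 was 1.65 with the second thinning seed. The folds in cells without Fos or Jun ranged from 11.1 to 28.5 and from 11.8 to 30.6. Those settings with Fosb, and those with all UMIs, were added after the data were seen. With all immediate early genes in the score, too few cells had 0 for a fold over spleen. The cause of these shifts was not tested. Depth limits the spleen side: 25 Lmna UMIs, 4 after thinning in the class with 0.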

Other observations

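Muscle cells with more interferon-response transcripts held fewer Vim UMIs. Of that list 7 of 10 measured genes were higher in muscle (among them Bst2, Rtp4, Ifit1 and Irf7), against 7.47% of all genes. Cells with 3 or more interferon-response UMIs per 1000 had 0.673-fold (0.578 to 0.781) the Vim level of cells with 0 in muscle library 1 and 0.728-fold (0.628 to 0.842) in muscle library 2. Vim was at 1787 against 2655 CPM in the first and 2093 against 2874 CPM in the second. Lmna went the same way, at 0.735-fold (0.543 to 0.981) and 0.845-fold (0.630 to 1.12), the second with 1 inside its interval. The share of cells with Vim was 67.2% (58.1 to 75.4%) against 72.6% (67.6 to 77.2%), and 66.4% (56.6 to 75.2%) against 77.8% (73.4 to 81.9%), with overlapping intervals. By cells the classes were thus not distinguishable, and the difference was seen in the number of Vim UMIs, whose intervals are too narrow. Most measured interferon genes and Vim were higher in the muscle libraries, while Vim UMIs were lower in the class with more interferon transcripts.

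The members differed in how they went with a cell's total UMI count, which does not separate RNA content from capture and depth. In muscle, cells above their library's median UMI count had Lmna at 0.763-fold (0.664 to 0.878) and 0.811-fold (0.718 to 0.918) of the level in the other cells, while Vim stood at 1.09-fold and 0.994-fold. In spleen the deeper cells had Lmnb1 at 3.20-fold (1.88 to 5.82), Vim at 1.82-fold (1.48 to 2.25) and Sun2 at 0.639-fold (0.486 to 0.841) of the others. Muscle gave Lmnb1 ratios of 1.13 and 1.11 and Sun2 ratios of 0.802 and 0.956 for the same split.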
